A study of Mus musculus with 12 samples.

Results

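The receptors followed were 8 genes, the rows of the deposited table for Avpr1a, Adcyap1r1, Vipr1, Vipr2, Tacr1, Tacr3, Galr1 and Oprm1, which encode receptors for peptide hormones and neuropeptides. They are 8 of the 50508 gene rows, and 6 of them had at least 1 UMI in the wells kept here. A UMI, or unique molecular identifier, stands for 1 captured transcript molecule. The list was chosen with values of the sorting gate and of the irradiation already known, so those values are given below as a description. Where a fit's calls of members on them are mentioned, nothing is read from the calls. A split among neurons that the choice did not use, between wells with Nos1 and wells with cholinergic genes, is tested. The cells were Dclk1-tdTom+ cells from adult C57BL/6 mice, taken from intestinal LMMP tissue (longitudinal muscle with the attached myenteric plexus) and sorted 1 per well onto 12 plates of 96 wells. All mice had received 3 mg tamoxifen at 8 or 9 weeks of age and were collected 10 days later. In homeostasis they had no further treatment, and the irradiated mice had 10.5 Gy on day 7 and were collected 3 days after it. Cells without surface CD49b (CD49b-) are labelled neuronal and cells with it (CD49b+) glial. Each of the 4 groups had 3 plates and each plate held cells of 2 pooled mice. The CD49b- plate and the CD49b+ plate of a replicate came from the same pool of mice. The plates hold only cells with the Dclk1-tdTom label, which are a part of the enteric neurons and glia.

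Peptide receptors of this kind are membrane proteins that couple to G proteins. The V1a vasopressin receptor Avpr1a and the tachykinin receptors Tacr1 and Tacr3 act mainly through Gq and phospholipase C. Adcyap1r1 (PAC1, the receptor of PACAP), Vipr1 and Vipr2 (VPAC receptors, which bind both VIP and PACAP) act mainly through Gs and cyclic AMP, whereas the galanin receptor Galr1 and the mu opioid receptor Oprm1 act through Gi and Go and dampen neurons. In the gut wall VIP is a relaxing and secretomotor transmitter of neurons that often also carry Nos1, the neuronal nitric oxide synthase. Tachykinins are excitatory co-transmitters of cholinergic motor neurons, and opioids acting on Oprm1 slow transit.

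After wells with at least 1000 UMIs, at least 500 detected genes and under 20% mitochondrial UMIs were kept, 964 of 1150 wells remained. The 6 CD49b- plates held 541729 to 746674 UMIs each in 78 to 93 wells, and the 6 CD49b+ plates 150561 to 243340 UMIs in 60 to 84 wells. Levels are given as CPM, the UMIs of a gene scaled to 1000000 UMIs of the plate or of the wells named. The median well had 7243 UMIs on CD49b- plates and 2462 on CD49b+ plates. A count of 0 on a plate therefore allows up to 4.02 to 5.54 CPM (3 counts of the plate's total) on CD49b- plates and 12.3 to 19.9 on CD49b+ plates. The labelled cell types were checked against markers. Neuron markers summed to 6044 to 7243 CPM on CD49b- plates and glial markers to 25393 to 33515 on CD49b+ plates, with the neuron marker Uchl1 at 0 UMIs on all plates. On CD49b- plates the markers of interstitial cells of Cajal (Kit, Ano1, Etv1) summed to 213 to 372 CPM and those of fibroblasts to 0 to 296, and on CD49b+ plates neuron markers summed to 26.6 to 56.0 on 4 plates, 1230 on irradiated replicate 1 and 748 on irradiated replicate 2. Wells whose markers went against their gate numbered 2 on CD49b- homeostasis replicate 3 and 1 each on CD49b+ irradiated replicates 1 and 2. The CD49b- plates had glial markers at 45.6 to 245. The part of these other cell types in the results was not tested, except that values without the wells that went against their gate are given with the limits.

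Avpr1a, the V1a receptor for vasopressin, was detected on CD49b- plates only and stood lower on irradiated than on homeostasis plates. The gene lies on chromosome 10 of GRCm38 from 122448499 to 122453452 on the plus strand. CD49b- plates of homeostasis held 46, 30 and 27 Avpr1a UMIs in replicates 1 to 3, or 75.3, 45.8 and 36.2 CPM. The irradiated CD49b- plates held 6, 8 and 9 UMIs, or 11.1, 10.8 and 12.8 CPM. Every homeostasis plate lay above every irradiated plate, and the irradiated plates lay close together. All 6 CD49b+ plates had 0 UMIs. The mean over the 6 CD49b- plates was at least 1.95-fold higher than the CD49b+ level that 3 counts per plate would give, a bound set by the depth of the CD49b+ plates. The irradiated CD49b- plates alone, at 10.8 to 12.8 CPM, lay near or under the limits of 12.3 to 19.9 for single CD49b+ plates. Summed over the 3 irradiated CD49b+ plates, 0 of 578523 UMIs allow up to 5.19 CPM by 3 counts, under each irradiated CD49b- plate. That limit covers counting error only, and the gate difference after irradiation alone was not tested. The promoter windows of Avpr1a and of Vipr2, which was often found in the same wells, are shown with that of Tacr3, the member that was higher in CD49b+ wells. Each is the 250 bases before the gene's start on the plus strand of RefSeq's GRCm38.p6, and capitals mark a TATA box (TATAAA, either strand) or a GC box (GGGCGG, either strand).
Avpr1a: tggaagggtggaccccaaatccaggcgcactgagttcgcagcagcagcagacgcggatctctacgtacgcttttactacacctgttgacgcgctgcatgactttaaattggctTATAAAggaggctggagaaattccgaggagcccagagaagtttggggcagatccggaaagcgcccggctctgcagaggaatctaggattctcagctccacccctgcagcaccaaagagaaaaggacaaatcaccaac
Vipr2: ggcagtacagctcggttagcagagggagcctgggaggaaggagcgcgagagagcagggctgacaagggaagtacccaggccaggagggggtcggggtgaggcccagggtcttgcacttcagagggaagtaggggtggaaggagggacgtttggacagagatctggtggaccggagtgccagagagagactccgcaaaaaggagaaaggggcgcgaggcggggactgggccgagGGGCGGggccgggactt
Tacr3: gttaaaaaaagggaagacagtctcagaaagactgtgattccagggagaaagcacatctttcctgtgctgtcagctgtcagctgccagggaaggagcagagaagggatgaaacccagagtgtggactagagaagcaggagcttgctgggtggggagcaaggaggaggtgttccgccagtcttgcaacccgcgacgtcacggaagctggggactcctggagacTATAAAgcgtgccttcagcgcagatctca

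The windows lie at chr10:122448249-122448498, chr12:116077476-116077725 and chr3:134828757-134829006. Avpr1a and Tacr3 each had 1 TATA match and no GC box, and Vipr2 had 1 GC box and no TATA match. None of the 3 held the palindromic cyclic AMP response element TGACGTCA. Of 32851 RefSeq promoter windows of the same length, 12.4% held a TATA match, 32.7% a GC box and 1.55% the cyclic AMP element. A match is only a description of these letters.

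**Figure D1:**
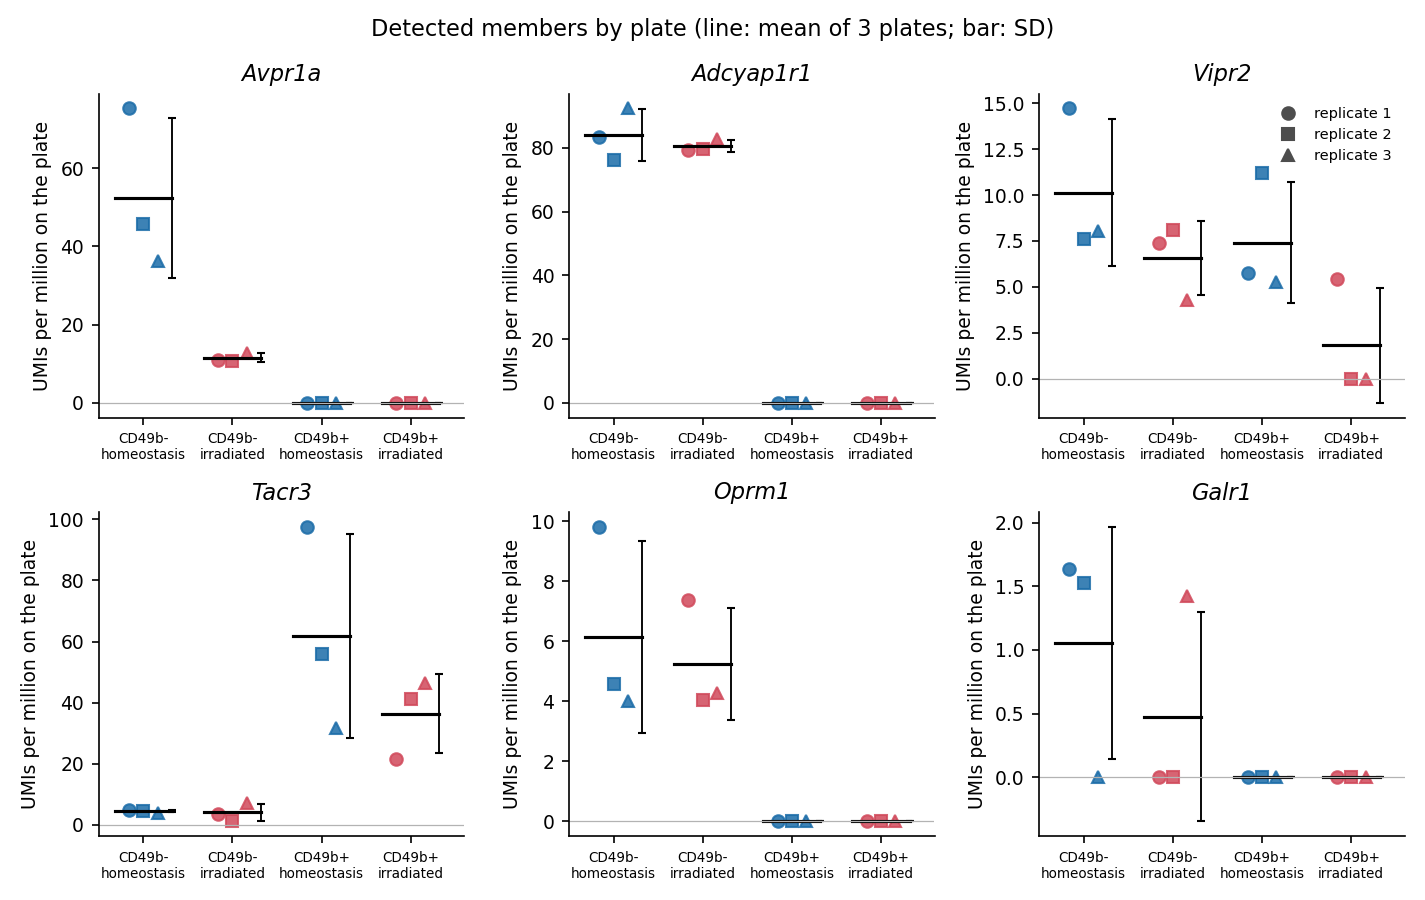
Level of the 6 detected members (y axis, CPM of the plate) on each of the 3 plates of the 4 groups, with the group mean as a line and the SD as a bar. Avpr1a, Adcyap1r1, Oprm1 and Galr1 have points above 0 on CD49b- plates only, Avpr1a is at 36.2 to 75.3 in homeostasis and 10.8 to 12.8 after irradiation, and Tacr3 is higher on CD49b+ plates.

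Homeostasis CD49b- plates had a mean Avpr1a level of 52.4 ± 20.4 CPM and irradiated ones 11.6 ± 1.11 (SD, n = 3 plates each), a ratio of 4.53. The edgeR fit over all plates gave a log2 fold change of -2.12 with a standard error of 0.437. Of the 3 members tested in that fit, 0 were past the adjusted threshold of 0.05 on CD49b- plates, where 0.0468% of the 8555 genes tested were called (4 genes; 354 had an unadjusted p under 0.05 and DESeq2 called 4). Avpr1a was past the threshold in edgeR with no filter on low counts, where 0.171% of 26315 genes were called. That fit gave each gene a spread pooled over genes, so its own spread between plates had no part. Avpr1a was also past the threshold without irradiated CD49b+ replicate 1, where 0.0735% of 10884 genes were. In the other fits that gave it an adjusted p, DESeq2 included, it was not. Of the same 3 members, Avpr1a alone had all homeostasis plates above all irradiated plates, an order found in 7.18% of the 8555 genes. Since irradiation values helped choose the list, nothing is read from these counts and calls. Without homeostasis replicate 1, the highest plate, the log2 fold change was -1.80 (SE 0.528) in the fit with no filter on low counts. In the labels the plates carry the numbers S1 to S4 in 3 sets, of which only the set with replicate 1 holds both treatments. In that set Avpr1a stood at 75.3 against 11.1 CPM, 6.80 times, and on the other plates at 41.0 against 11.8, 3.47 times. A level summed over a plate cannot tell fewer cells with the receptor from less receptor RNA per cell. Because each well held 1 cell, the wells with an Avpr1a UMI could also be counted. With so few UMIs per well that share falls with the mean level, so it cannot tell these apart either.

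Fewer irradiated wells had any Avpr1a UMI, and those that did had fewer. In homeostasis 62 of 262 CD49b- wells (23.7%, exact 95% interval 18.7 to 29.3) had at least 1 UMI, and after irradiation 22 of 266 (8.27%, 5.26 to 12.3). Homeostasis plates had shares of 29.0%, 24.4% and 17.6%, and irradiated plates 5.43%, 8.99% and 10.6%, so the plates did not overlap. Intervals and limits here cover counting error only. Wells with 2 or more UMIs numbered 26 in homeostasis and 1 after irradiation, and the mean per positive well was 1.66 and 1.05 UMIs. The highest well held 6 UMIs. The median depth of all wells was 7487 UMIs in homeostasis and 6986 after irradiation. With each well thinned to 2000 UMIs, 27 of 259 wells (a mean over plates of 10.5% ± 3.46) kept an Avpr1a UMI in homeostasis and 6 of 264 (2.25% ± 1.06) after irradiation, and 5 shallower wells were left out. In CD49b+ wells, a population labelled glial, 0 of 436 had a UMI, which by 3 counts allows a share of wells with a UMI of up to 0.688%. With every well thinned to 1000 UMIs, 15 of 528 CD49b- wells and 0 of 436 CD49b+ wells had one.

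**Figure D2:**
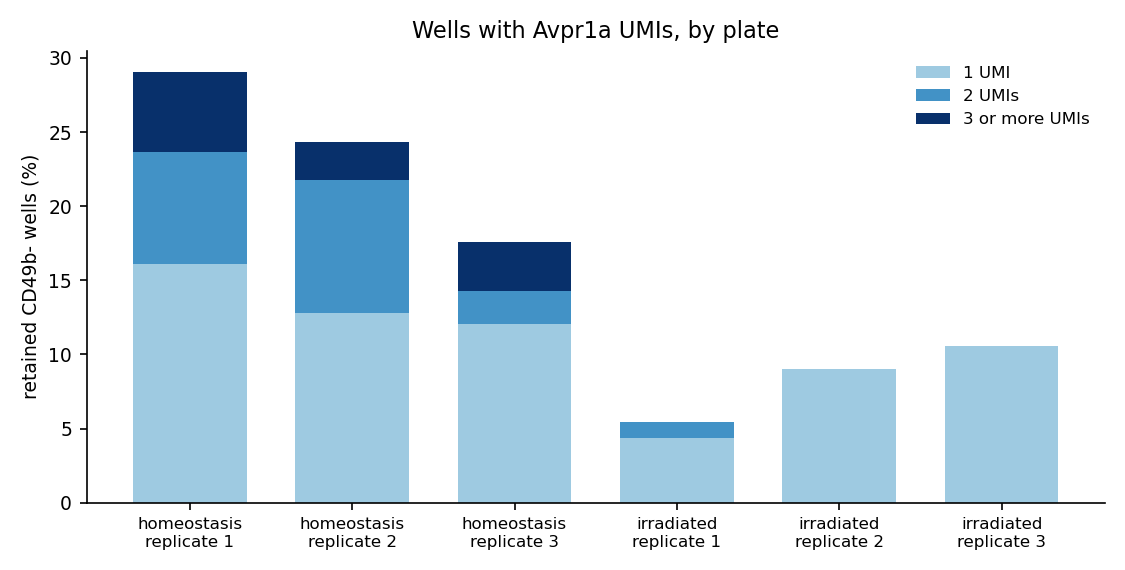
Share of retained CD49b- wells (y axis, %) with 1, 2 or at least 3 Avpr1a UMIs, stacked, on each plate. The homeostasis bars reach 17.6% to 29.0% and include wells with 2 and with at least 3 UMIs, whereas the irradiated bars reach 5.43% to 10.6% and hold 1 well with 2 UMIs.

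Among neurons, the mean Avpr1a level was lower in Nos1 wells (10.8 ± 10.5 CPM) than in cholinergic wells (49.0 ± 32.6; SD, n = 6 plates) or wells of neither class (a mean of 59.9). Nos1 wells were the 254 CD49b- wells with at least 2 Nos1 UMIs. Cholinergic wells were the 167 with at least 2 UMIs over Chat, Slc18a3 and Slc5a7 (choline acetyltransferase and the vesicular and choline transporters) and 0 Nos1 UMIs, and 107 wells were in neither class. The 2 rules are not symmetric: 70 of the Nos1 wells also had at least 2 cholinergic UMIs, and the 85 wells with exactly 1 Nos1 UMI all fell in neither class. On the homeostasis plates Avpr1a stood at 90.6, 79.3 and 58.2 CPM in cholinergic wells (25, 8 and 17 UMIs) and at 28.5, 16.3 and 2.94 in Nos1 wells (6, 7 and 1 UMIs). On the irradiated plates it stood at 10.8, 17.5 and 37.8 in cholinergic wells (1, 5 and 6 UMIs) and at 11.4, 5.60 and 0 in Nos1 wells (4, 2 and 0 UMIs). Cholinergic wells were higher on 5 of 6 plates, and the exception was irradiated replicate 1, whose 17 cholinergic wells held 1 UMI. Pooled over plates, 44 of 167 cholinergic wells (26.3%), 26 of 107 wells of neither class (24.3%) and 14 of 254 Nos1 wells (5.51%) had Avpr1a. Nos1 wells were the deeper class, with the median of the plate medians at 8832 against 7072 UMIs in homeostasis and 7624 against 6645 after irradiation.

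The filter on low counts left 4912 genes in the class comparison and dropped every member but Adcyap1r1, so Avpr1a has no value there. With classes of at least 1 UMI it passed the filter, and edgeR's quasi-likelihood test with the plate as a block gave a log2 fold change of -1.02 (SE 0.296) in Nos1 against cholinergic wells, with a Benjamini-Hochberg adjusted p of 0.0259. DESeq2 on the main classes gave -2.29 (SE 0.610) with an adjusted p of 0.00740. An exact two-sided sign-flip permutation test over the 6 plates, taken on each plate's difference in CPM, gave p = 0.0625, with 0.03125 the smallest p that 6 plates allow. With no filter on low counts edgeR gave -2.15 (SE 0.385) with an adjusted p of 2.05e-06, and -2.37 to -1.83 without any 1 plate, past the threshold each time. In that fit the prior degrees of freedom for the spread were infinite, against 24.0 with the filter, so each gene took the pooled spread and its own spread between plates had no part in its p. Of the 6 detected members 2, Avpr1a and Vipr2, were called there, beside 3.4% of 23315 genes. DESeq2 called 1 of the 4 members with an adjusted p, Avpr1a, beside 3.35% of 11562 genes.

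**Figure D3:**
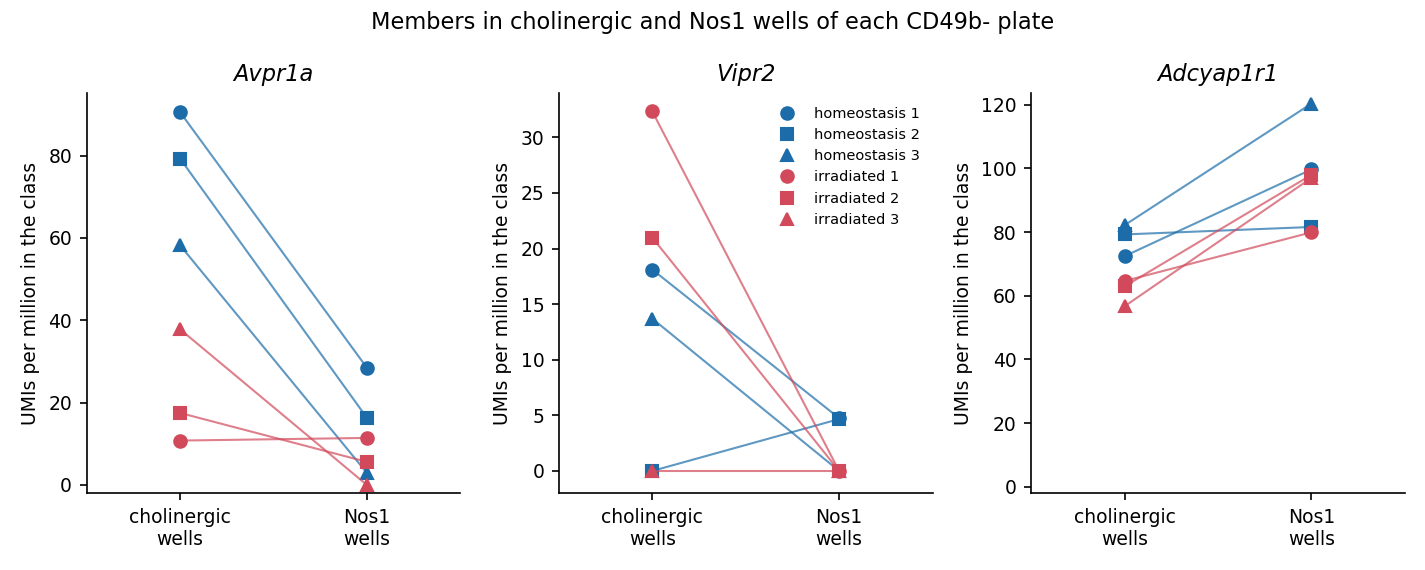
Avpr1a, Vipr2 and Adcyap1r1 (y axis, CPM of the class) in cholinergic and Nos1 wells, with 1 line per CD49b- plate. Avpr1a falls from left to right on 5 of 6 plates and Adcyap1r1 rises on 6 of 6. Vipr2 falls on 4, rises on 1 and is at 0 in both classes on 1.

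The genes most like Avpr1a across the 528 CD49b- wells, by Pearson's r of log-scaled counts, were Calb2, which encodes the calcium buffer calretinin (r = 0.40), Ly6c1 (0.38), Ly6e (0.38), Dmkn (0.36) and Chgb, a granin of secretory vesicles (0.33). The wells share plates and differ in depth, so these values are a description. Of the 84 wells with Avpr1a, 77 had at least 2 Calb2 UMIs (91.7%), against 204 of the other 444 CD49b- wells (45.9%). Tac1, the substance P precursor, had at least 2 UMIs in 81.0% of the Avpr1a wells and 57.7% of the others, and the vesicular acetylcholine transporter Slc18a3 in 81.0% and 41.4%. Oprk1, the kappa opioid receptor, had at least 2 UMIs in 38.1% and 13.5%. In the other direction Nos1 had at least 1 UMI in 44.0% of the Avpr1a wells and 68.0% of the others and at least 2 in 16.7% and 54.1%, and Vip in 23.8% and 57.2%. Penk, the enkephalin precursor, was not higher in the Avpr1a wells, with at least 2 UMIs in 21.4% of them and 24.8% of the others. Gal was detected in every CD49b- well, at 2605 CPM in Avpr1a wells and 16907 in the others. The median depths were 6911 and 7303 UMIs.

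A split by Calb2, made after these values were seen and given without a test, also divided the wells with Avpr1a from the rest. Wells with at least 2 Calb2 UMIs had Avpr1a at 54.0 ± 31.2 CPM and the other CD49b- wells at 7.12 ± 10.8 (SD, n = 6 plates), and the first were higher on 6 of 6 plates. Homeostasis plates lay above irradiated plates on both sides of that split. Among the wells with fewer Calb2 UMIs that order was not resolved, since homeostasis replicate 2 held 1 UMI and 0 allows 3 counts. In the Calb2 wells Avpr1a stood at 91.3, 89.9 and 59.9 CPM on the homeostasis plates and at 33.1, 19.9 and 30.2 on the irradiated plates. In the other wells it stood at 26.5, 3.01 and 13.2 CPM in homeostasis (4, 1 and 5 UMIs) and at 0 on all 3 irradiated plates, where 0 of 147 wells had a UMI (a share of up to 2.04%). Wells with Calb2 numbered 73, 40 and 49 in homeostasis and 35, 50 and 34 after irradiation, so the plates of both treatments overlapped in that count. In total they were 162 of 262 wells in homeostasis and 119 of 266 after irradiation. Cholinergic wells numbered 93 and 74, Nos1 wells 115 and 139 and wells of neither class 54 and 53. The part of these well numbers in the Avpr1a difference was not tested. Cholinergic wells held Avpr1a at 76.0 ± 16.4 CPM in homeostasis and 22.0 ± 14.1 after irradiation, and wells of neither class at 106 ± 23.9 and 13.4 ± 5.61 (SD, n = 3 plates each). In Nos1 wells the levels were 15.9 ± 12.8 and 5.67 ± 5.71, and there the plates overlapped.

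**Figure D4:**
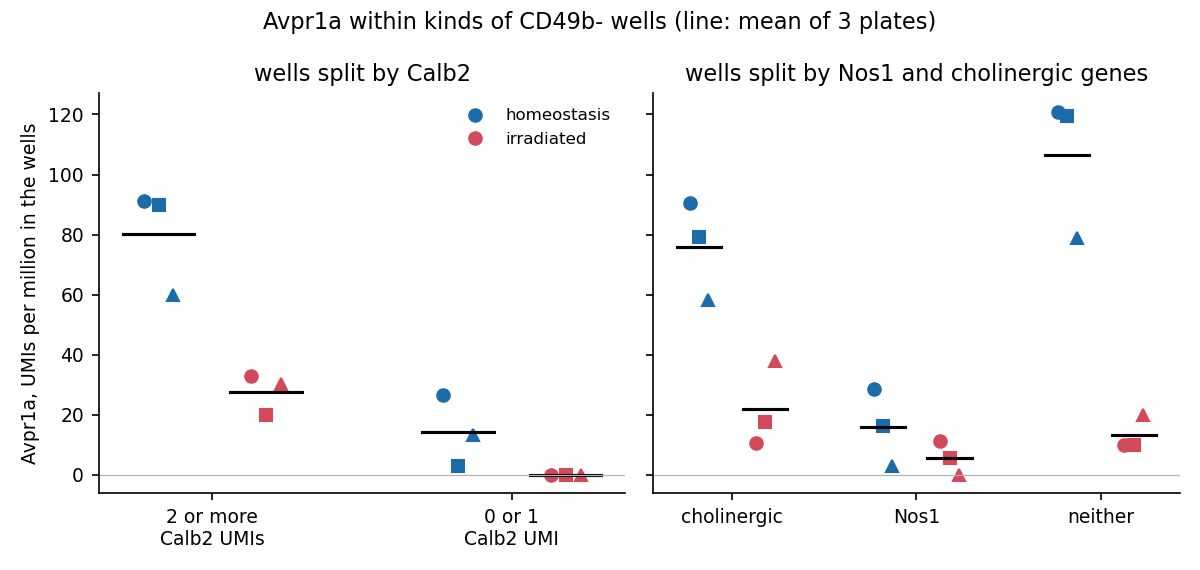
Avpr1a (y axis, CPM of those wells) by plate in homeostasis and after irradiation, for CD49b- wells split by Calb2 (left) and by Nos1 and cholinergic genes (right), with means as lines. Homeostasis plates lie above irradiated plates in wells with 2 or more Calb2 UMIs, in cholinergic wells and in wells of neither class. In wells with fewer Calb2 UMIs they also lie above, but on 4, 1 and 5 Avpr1a UMIs against 0. The plates overlap in Nos1 wells.

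Adcyap1r1, the PACAP receptor PAC1, was the most widely detected member, and its plate sums differed little between treatments. It lies on chromosome 6 from 55451978 to 55501451 on the plus strand. The homeostasis CD49b- plates held 51, 50 and 69 UMIs (83.5, 76.3 and 92.4 CPM) and the irradiated plates 43, 59 and 58 (79.4, 79.5 and 82.7 CPM). The plates overlapped, with means of 84.1 ± 8.06 and 80.5 ± 1.87 (SD, n = 3 each) and a fitted log2 fold change of -0.04 (SE 0.260). At least 1 UMI was found in 109 of 262 homeostasis wells (41.6%) and 119 of 266 irradiated wells (44.7%). The 6 CD49b+ plates had 0 UMIs, which makes the CD49b- mean at least 5.02-fold higher than 3 counts per plate would give. No CD49b+ well of 436 had a UMI, and at 1000 UMIs per well 35 of 528 CD49b- wells had one.

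In contrast to Avpr1a, Adcyap1r1 was higher in Nos1 wells than in cholinergic wells on 6 of 6 plates, though the difference did not pass the threshold. Its level was 96.1 ± 14.7 CPM in Nos1 wells and 69.7 ± 9.95 in cholinergic wells (SD, n = 6 plates). By plate the Nos1 wells stood at 99.7, 81.6 and 120 in homeostasis and 79.9, 98.0 and 97.0 after irradiation, and the cholinergic wells at 72.4, 79.3 and 82.2 and then 64.7, 63.0 and 56.7. The edgeR log2 fold change was 0.56 (SE 0.193) with an adjusted p of 0.0555, so 0 members were called where 11.7% of the 4912 genes were (1 member had an unadjusted p under 0.05, and DESeq2, which also takes low genes, called Avpr1a). The exact sign-flip permutation test over plates gave p = 0.03125, the smallest that 6 plates allow. Adjusted p was 0.0415 with classes of at least 5 UMIs and 0.0446 without homeostasis replicate 2, and 0.0563 to 0.686 under the other alternatives. Pooled, 129 of 254 Nos1 wells (50.8%) and 64 of 167 cholinergic wells (38.3%) had a UMI. Calb2 did not divide this receptor, with 80.7 ± 16.7 CPM in wells with Calb2 and 82.6 ± 12.4 in the others (n = 6 plates). Between treatments, homeostasis plates lay above irradiated plates in cholinergic wells and overlapped with them in Nos1 wells. In wells with fewer Calb2 UMIs the means went the other way, from 75.6 to 89.7 CPM, and the plates overlapped. These differences within kinds of wells were not tested. The gene closest to Adcyap1r1, Bglap, had r = 0.19.

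Vipr2, the VPAC2 receptor for VIP and PACAP, was sparse and was found in Calb2 wells. It lies on chromosome 12 from 116077726 to 116146261 on the plus strand. CD49b- plates held 9, 5 and 6 UMIs in homeostasis (14.7, 7.63 and 8.04 CPM) and 4, 6 and 3 after irradiation (7.38, 8.09 and 4.28), and the plates overlapped. CD49b+ plates held 1, 2 and 1 UMIs and then 1, 0 and 0, each under the level of 3 counts. The ratio of CD49b- to CD49b+ was 1.85 with a counting interval of 0.718 to 6.07, so no difference was detectable at this depth. All 33 CD49b- UMIs lay in wells with at least 2 Calb2 UMIs, 28 of 281 of them, and none in the other 247 wells, where 0 allows a share of up to 1.21%. The level in the Calb2 wells was 17.1 ± 2.15 CPM in homeostasis and 15.7 ± 6.03 after irradiation (SD, n = 3 plates each).

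Cholinergic wells held 18 Vipr2 UMIs and Nos1 wells 3. The log2 fold change of Nos1 against cholinergic wells was -2.79 (SE 0.849) in edgeR without the filter, with an adjusted p of 0.0328 that rests on the same pooled spread, and -3.03 in DESeq2, with an adjusted p of 0.278. Leaving out 1 plate moved edgeR's adjusted p between 0.00697 and 0.414, and it was past the threshold only without homeostasis replicate 2 or irradiated replicate 3. The exact sign-flip permutation p was 0.125. Vipr2 and Avpr1a were in the same well more often than the product of their shares gives: 16 wells had both, where 84 and 28 of 528 wells would give 4.45. That count is a description, since both depend on the kind of well. By comparison Avpr1a and Adcyap1r1 shared 31 wells where the product gives 36.3. In all 307 of 528 CD49b- wells had at least 1 member and 63 had more than 1.

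Tacr3, the NK3 receptor for neurokinin B, was the only detected member with more UMIs in CD49b+ than in CD49b- wells. It lies on chromosome 3 from 134829007 to 134934579 on the plus strand. CD49b+ plates held 17, 10 and 6 UMIs in homeostasis (97.6, 56.0 and 31.6 CPM) and 4, 10 and 7 after irradiation (21.7, 41.1 and 46.5). CD49b- plates held 3, 3 and 3 and then 2, 1 and 5 UMIs, or 1.35 to 7.13 CPM, so the gates did not overlap. The ratio of CD49b+ to CD49b- was 11.3 (counting interval 6.46 to 20.8) and the fitted log2 fold change 3.34 (SE 0.446). At 1000 UMIs per well 25 of 436 CD49b+ wells and 2 of 528 CD49b- wells had a UMI. Across all wells the shares were 48 of 436 wells and 12 of 528 (2.27%). In the gate comparison 3 of the 3 tested members were past the threshold, 1 higher and 2 lower in CD49b+, where 62.1% of all 8555 genes were. The list was chosen on that contrast, so nothing is read from this count.

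Irradiated and homeostasis CD49b+ plates overlapped for Tacr3, with means of 61.7 ± 33.4 and 36.4 ± 13.1 CPM (SD, n = 3 each) in homeostasis and after irradiation. In the label set with both treatments the single homeostasis and irradiated plates stood at 97.6 and 21.7 CPM, from 17 and 4 UMIs. The other plates had means of 43.8 and 43.8, with the homeostasis plates at 56.0 and 31.6. On CD49b+ plates 0 of the 3 tested members were past the threshold, where 0.713% of 8555 genes were, and for the difference of the irradiation effects between gates 0 members and 0.0117% of genes. Avpr1a and Adcyap1r1 had 0 UMIs on the CD49b+ plates, so neither could be called in these comparisons. Nothing is read from these counts. On CD49b- irradiated replicate 3 all 5 Tacr3 UMIs came from 1 well. In cholinergic wells Tacr3 had 8 UMIs and in Nos1 wells 3, with a log2 fold change of -1.99 (SE 1.22) and an adjusted p of 0.816 in edgeR without the filter. The gene closest to Tacr3 across 436 CD49b+ wells, mt-Ts2, had r = 0.25.

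The members Oprm1 and Galr1, receptors for opioids and galanin, were scarce, and Vipr1 and Tacr1 were not seen. Oprm1, on chromosome 10 from 6758506 to 7038198 on the plus strand and overlapping exons of Ipcef1 on the minus strand, had 6, 3 and 3 UMIs on the homeostasis CD49b- plates and 4, 3 and 3 on the irradiated ones. Those are 4.02 to 9.82 and 4.04 to 7.38 CPM, and the plates overlapped. CD49b+ plates had 0, and the limit of 12.3 to 19.9 CPM for single CD49b+ plates lies above the CD49b- level. Summed over the 6 CD49b+ plates, 0 of 1121478 UMIs allow up to 2.68 CPM by 3 counts, under each CD49b- plate. That limit covers counting error only, and the main test between gates did not include Oprm1. It had 12 UMIs in Nos1 wells and 10 in cholinergic wells (log2 fold change -0.30, SE 0.757, adjusted p = 0.956 in edgeR without the filter), and 0 in wells of neither class. Strandedness of the counting is not given in the sources used here, so Oprm1 reads cannot be told apart from Ipcef1 reads where their exons overlap. Galr1, on chromosome 18 from 82392380 to 82406777 on the minus strand, had 3 UMIs in all, on 3 CD49b- plates. Vipr1 (chromosome 9, 121642716 to 121672954, plus strand), the VPAC1 receptor, and Tacr1 (chromosome 6, 82402334 to 82560104, plus strand), the NK1 receptor of substance P, had 0 UMIs in every well of the table. For each, 3 counts allow a share of up to 0.568% of the 528 CD49b- wells and 0.688% of the 436 CD49b+ wells, which limits wells with a UMI at this depth and not cells that express the gene.

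Peptide precursors that act on these receptors were found mostly in CD49b- wells. Of 9 ligand genes listed, 4 passed the filter and all 4 were called lower on CD49b+ plates, Vip (log2 fold change -8.08, SE 0.513), Tac1 (-5.35, SE 0.531), Penk, the enkephalin precursor (-5.23, SE 0.536), and Gal (-4.82, SE 0.975), beside 62.1% of all 8555 genes called between gates. Without irradiated CD49b+ replicate 2 the values were -9.04 (SE 0.460) for Gal and -7.32 (SE 0.386) for Tac1. DESeq2 called Vip and Penk and gave Gal and Tac1 no adjusted p. Vip had 4 UMIs over all CD49b+ plates, so the size of its difference is poorly known. Avp, which encodes vasopressin, had 1 UMI, Adcyap1, which encodes PACAP, 26 and Tac2, the neurokinin B precursor, 1. Among neurons all 4 tested ligands were called, beside 11.7% of 4912 genes. Vip (log2 fold change 3.11, SE 0.274) and Gal (2.95, SE 0.262) were higher in Nos1 wells, on 6 of 6 plates each, and Tac1 (-2.29, SE 0.144) and Penk (-1.87, SE 0.349) in cholinergic wells, on 6 and 5 plates. On CD49b- plates 0 of 4 were called for irradiation, beside 0.0468% of all 8555 genes. Of the 4, 1 had an unadjusted p under 0.05 and DESeq2 called 0. With no filter on low counts 1, Penk, was called (log2 fold change 1.24, SE 0.237), beside 0.171% of 26315 genes. In the main fit the smallest unadjusted p values on these plates were those of Penk (log2 fold change 1.22, SE 0.420) and Vip (0.65, SE 0.349). On CD49b+ plates 1 ligand, Gal, was called for irradiation, beside 0.713% of all 8555 genes. Its log2 fold change was 8.16 (SE 1.62) with an adjusted p of 0.0124 in edgeR. Of its 6118 UMIs on irradiated CD49b+ plates 6109 were on replicate 2, in 84 of 84 wells and up to 2428 in a well, and without that plate the log2 fold change was -0.22 with an adjusted p of 0.988 in edgeR. It was also not past the threshold without any 1 of the homeostasis CD49b+ plates (adjusted p = 0.0800 to 0.0846 in edgeR), and DESeq2 gave it no adjusted p. That plate also held 81 of the 84 Tac1 UMIs and 24 of the 31 Penk UMIs of irradiated CD49b+ plates, and its neuron markers summed to 748 CPM. Without the wells that went against their gate the Gal value was 8.20.

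For the other peptide receptors, 72 of 74 listed genes were in the table, 50 had UMIs and 10 passed the filter. Of those 10, 9 were called between gates, beside 62.1% of all genes, and 5 of them were higher on CD49b+ plates. They were the receptor-modifying proteins Ramp2 (log2 fold change 7.29, SE 0.354), Ramp3 and Ramp1 (1.59, SE 0.152), the endothelin B receptor Ednrb (3.38, SE 0.222) and the melanocortin receptor Mc1r (1.77, SE 0.264). Ramp3 had 0 UMIs on CD49b- plates and was at least 7.53-fold higher on CD49b+ plates than 3 counts per CD49b- plate would give. Ramp2 had 4 UMIs over all CD49b- plates, so the size of its difference is also poorly known. The nociceptin receptor Oprl1 (-5.50, SE 0.752), the kappa opioid receptor Oprk1 (-5.12, SE 0.544), the cholecystokinin receptor Cckar (-4.58, SE 0.998) and the parathyroid hormone receptor Pth1r (-4.40, SE 0.475) were called lower. Over all CD49b+ plates they had 1, 3, 4 and 4 UMIs, so the sizes of these differences are poorly known. For Oprl1 the counting interval of the ratio ran from 6.83 to 1540. The median of the 10 was 0.47, against -0.13 over all 8555 genes. Of the same 10, 0 were called for irradiation in CD49b- plates, 0 in CD49b+ plates and 0 for the difference between gates, by edgeR and by DESeq2. By edgeR 0.0468%, 0.713% and 0.0117% of all genes were called there. At an unadjusted p under 0.05 there were 2, 2 and 0 of the 10. The 2 were Ednrb and Oprk1 on CD49b- plates (log2 fold changes -0.95, SE 0.332, and -0.69, SE 0.316) and Ednrb and Ramp1 on CD49b+ plates (-0.84, SE 0.280, and -0.54, SE 0.213).

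**Figure D5:**
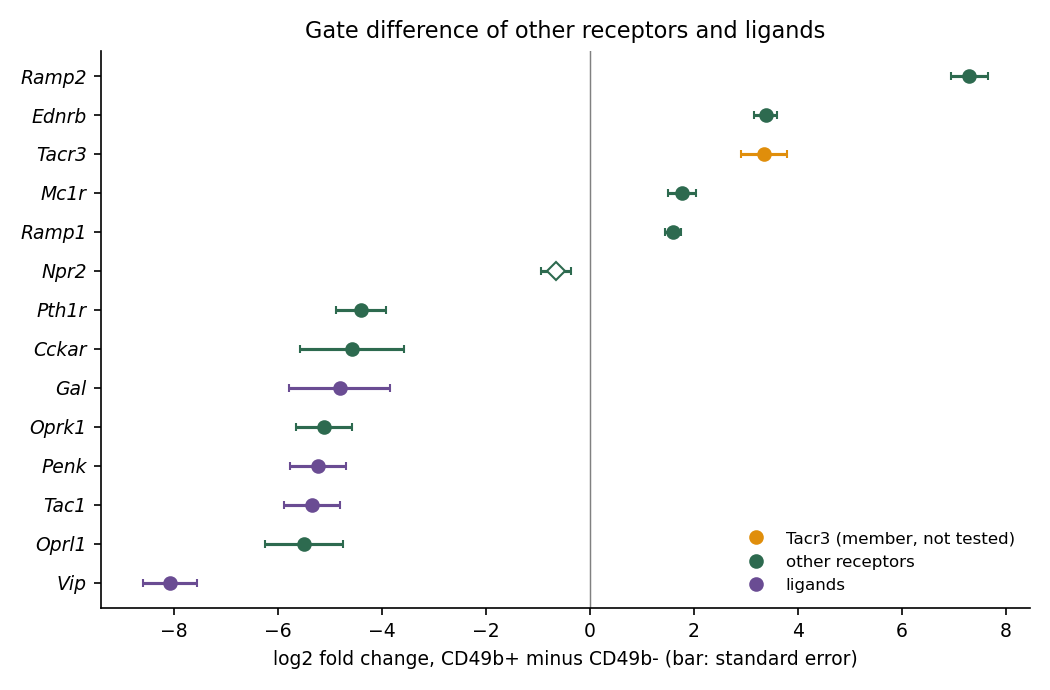
Log2 fold change of CD49b+ against CD49b- plates (x axis, with the standard error as a bar) for tested ligand and other receptor genes and for Tacr3. Filled points of receptors and ligands passed the adjusted threshold, the open diamond (Npr2) did not, Tacr3 is shown as a description, and Ramp3 is left out because its CD49b- plates are at 0 UMIs. Ramp2 on CD49b- plates, and Oprl1, Oprk1, Cckar, Pth1r and Vip on CD49b+ plates, each had 4 UMIs or fewer in all.

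Oprk1 was called lower in Nos1 than in cholinergic wells, as were Ednrb and Ramp1, and Mc1r higher, 4 of the 6 other receptors tested there, beside 11.7% of all genes. Oprk1 stood at 148 ± 65.0 CPM in cholinergic wells and 22.7 ± 20.8 in Nos1 wells, higher in cholinergic wells on 6 of 6 plates (log2 fold change -2.53, SE 0.333, adjusted p = 9.03e-07 in edgeR). Ednrb (-0.84, SE 0.241, adjusted p = 0.0184 in edgeR) and Ramp1 (-0.43, SE 0.0999, adjusted p = 0.00262) followed it on 5 and 6 plates. Mc1r (0.97, SE 0.312, adjusted p = 0.0390) was higher in Nos1 wells on 5 plates. Of the 4, Oprk1 alone was called without the plate block.

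Genes of the signalling steps behind the receptors were detected in both gates. Of 36 listed G protein, cyclase, protein kinase A, phospholipase C, arrestin, kinase and RGS genes, 22 passed the filter, 4 were called higher on CD49b+ plates and 12 lower, with a median log2 fold change of -0.85 against -0.13 over all genes. The 16 of 22 called stand beside 62.1% of all genes. The higher ones were Plcb1, a phospholipase C that Gq activates (3.97, SE 0.381), Rgs2, which limits Gq signals (2.46, SE 0.462), Prkar2a (1.40, SE 0.198) and Gnaz (0.85, SE 0.180). Among the lower ones were Rgs4 (-6.51, SE 0.358), the protein kinase A subunits Prkar1b (-4.54, SE 0.326) and Prkaca (-2.54, SE 0.225), the Go subunit Gnao1 (-3.41, SE 0.291) and the receptor kinase Grk3 (-3.29, SE 0.371). Rgs4 had 4 UMIs over all CD49b+ plates, so the size of its difference is poorly known. The Gq subunits Gnaq and Gna11 were also lower, at -0.61 (SE 0.203) and -0.54 (SE 0.184). None of the 22 was called for irradiation in either gate by edgeR or DESeq2. By edgeR 0.0468% of all genes were called on CD49b- plates and 0.713% on CD49b+ plates. Of the 22, 0 on CD49b- and 4 on CD49b+ plates had an unadjusted p under 0.05. Prkar1b was called on CD49b+ plates without irradiated replicate 3. Between Nos1 and cholinergic wells 2 of 17 were called, Prkar1a higher in Nos1 wells (0.41, SE 0.0835) and Prkacb higher in cholinergic wells (-0.82, SE 0.203), each on 6 of 6 plates, a share near the 11.7% of all genes called there.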

How the data were processed

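The authors' deposited table holds raw UMI counts per gene and well, with no normalisation. Per the labels' protocols, cells were lysed and reverse transcribed in the well and libraries made with Nextera XT. STAR 2.5.3a, featureCounts 1.5.3, GRCm38 and GRCh38 are named in the submitters' processing notes, without their roles, and UMI collapsing and strandedness are not given in the sources used here. Doublets were not called, since cells were sorted 1 per well, and 95 of 96 well barcodes occur on all 12 plates by design.

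Wells with at least 1000 UMIs, 500 genes and under 20% mitochondrial UMIs were summed per plate (5119450 of 5159668 UMIs). Levels (CPM) are not compared between genes. The main test was edgeR 4.0.16 (quasi-likelihood, TMM, filterByExpr, Benjamini-Hochberg over all tested genes, threshold 0.05) on sums over 12 plates, and on sums per plate and class with the plate as a block. Standard errors are |log2 fold change| divided by the square root of F. DESeq2 1.42.0, Python 3.11.15 and scipy 1.17.1 were also used, and the fits were tested on simulated data. Members and gene lists were chosen with earlier results of these data known. Named were all members, up to 6 genes of each list and direction by size among those called, in contrasts without calls the 2 with the smallest p, and the 5 genes most correlated with a member found in at least 30 wells. Names outside that rule (Calb2 companions, Npr2, Adcyap1, Avp, Tac2 and the 2 Gq subunits) were chosen after their values were seen. In the main fit of plate sums, p-values measure the spread between plates, each from a pool of 2 mice, and treat the 12 plates as independent. For class sums they measure how the class difference varies between plates. With no filter on low counts the spread is pooled over genes. CD49b- and CD49b+ plates of the same number share their mice. Across genes, residuals of such pairs had correlations of 0.0971, 0.0431 and 0.0587 (homeostasis pools) and 0.184, 0.113 and -0.0336 (irradiated pools). Gene positions are from GENCODE's GRCm38 annotation, and promoters, matched by symbol for 7 of 8 members, from RefSeq.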

Additional observations from a re-analysis of the deposited data

How the results depend on the processing

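Counts of called other receptors between gates (main count 9 of 10) were 21 with no filter on low counts, 18 with DESeq2 and 4 with wells thinned to 1000 UMIs, and 7 to 13 when 1 plate was left out. The replicate block of the mouse pool gave 9, 0 for the difference of irradiation effects and 3.34 for Tacr3 between gates, with the same counts for ligands and transducers as without it. It could not be fitted within a gate, where each pool had 1 treatment. On CD49b+ plates irradiation called 1 of them, Ednrb, with no filter on low counts and 0 to 0 when a plate was left out. In Nos1 against cholinergic wells, members called (main count 0) were 2 with no filter, 1 with DESeq2, 1 with classes of at least 1 UMI and 1 with at least 5 UMIs, and 0 to 1 when a plate was left out. Other receptors (main count 4) were 7 with no filter, 2 with DESeq2, 1 with no replicate block, 0 with wells thinned to 2000 UMIs and 2 to 5 when a plate was left out, with Ednrb and Mc1r no longer called without irradiated CD49b- replicate 2. The no-filter and DESeq2 fits test more genes, the no-filter fits also give each gene a pooled spread (infinite prior degrees of freedom, against 15.7 for plates and 24.0 for classes), and thinning leaves fewer UMIs. For the other changes the cause was not tested. The Avpr1a log2 fold change after irradiation was between -2.34 and -2.05 in the fits that kept the gene, which the filter dropped with thinned wells and without homeostasis CD49b- replicate 1 or 2. With no filter on low counts, chosen after seeing the data, leaving out each CD49b- plate gave -2.35 to -1.80. Tacr3 between gates was between 3.03 and 3.72. Tacr3 after irradiation on CD49b+ plates ran from -0.94 to -0.13. Leaving out the wells that went against their gate, chosen after seeing the data, gave 10 called receptors between gates, a Tacr3 value of 3.37 and an Avpr1a irradiation value of -2.13. The low depth of CD49b+ plates limits every statement on a member at 0 there.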
